A study of Homo sapiens with 6 samples.

Results

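The genes described here encode non-muscle myosin II, the kinase that switches it on and the phosphatase that switches it off. They were chosen by gene symbol, all 10 named genes were found among the 17064 genes listed, and all 10 passed the filter on low counts. They are the heavy chains MYH9 and MYH10, the light chains MYL6, MYL9, MYL12A and MYL12B, the kinase MYLK, the phosphatase targeting subunits PPP1R12A and PPP1R12B, and the catalytic subunit PPP1CB.

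Non-muscle myosin II is the motor that pulls on actin filaments in most cells, and each molecule pairs heavy chains with essential and regulatory light chains. Phosphorylation of the regulatory light chain, by myosin light chain kinase and by kinases that act below CDC42, allows the motor to assemble into filaments and contract. Myosin phosphatase removes that phosphate, and the MRCK kinases, which bind CDC42, are known to act on both the light chain and the targeting subunit of the phosphatase.

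RNA was sequenced from MDA-MB-231, a human triple-negative breast cancer line taken from a metastatic site, in which the MRCK genes had been disrupted with lentiviral CRISPR. Vector control cells carried the lentiviral plasmid without a targeting guide and gave 2 libraries from separate transductions. MRCKα KO cells (CDC42BPA targeted) and MRCKβ KO cells (CDC42BPB targeted) gave 1 library each, and double knockout (DKO) cells gave 2 libraries, made with different sets of guides. All were drug-selected pools of cells and not single clones, and the spread between the DKO libraries includes any difference between guide sets. A gene's level is given as FPKM, the reads scaled to transcript length and to the library total, and its read number as an expected count, an estimate that need not be whole. Libraries held between 10349898 and 10657857 expected counts. Values of vector and DKO are given as library 1 and then library 2. Less RNA per cell and fewer cells with that RNA cannot be told apart in such bulk samples.

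The labels call the cells epithelial. Of the epithelial markers, KRT8 lay between 138 and 220.1 FPKM and KRT18 between 153 and 189, whereas CDH1 (E-cadherin) stayed between 0.25 and 0.64 and EPCAM between 0.73 and 2.62. Vimentin (VIM) lay between 1532 and 2052 FPKM and AXL between 237 and 367, so the line carried simple keratins together with mesenchymal markers and little E-cadherin. EPCAM was the 1 marker averaging at least 1 FPKM in either group that was past 2-fold. In MRCKα KO, with 1 library, it was at 0.73 against 2.62 and 2.47 in the vector libraries, from 13, 48 and 44 expected counts. Of all genes with a ratio at that level, 1.44% were past 2-fold in that library. Of the luminal markers, ERBB2 lay between 13.2 and 16.2, GATA3 between 2.59 and 4.18, and ESR1 reached at most 0.87.

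Several of the genes described here are also abundant in smooth muscle, so muscle markers were read in the same libraries. The 7 smooth muscle markers summed in FPKM to 51.7 and 59.6 in the vector libraries, 55.9 with MRCKα KO, 44.0 with MRCKβ KO, and 58.1 and 64.2 in DKO. Most of this was SMTN (smoothelin), at 31.2 to 52.1, followed by TAGLN at 7.92 to 14.92 and ACTA2 at 1.24 to 2.65. The defining smooth muscle heavy chain MYH11 lay between 0.23 and 0.36 and desmin (DES) between 0 and 0.17. The skeletal muscle markers in the table, ACTA1 and TTN, summed to at most 0.27 FPKM. The 8 fibroblast markers summed to 11.2 and 3.79 in the vector libraries, 4.67 with MRCKα KO, 7.29 with MRCKβ KO, and 6.21 and 4.0 in DKO, with PDGFRB the highest on average at 1.14 to 5.90, although COL1A1 exceeded it in vector 2 (2.27) and DKO 2 (2.56). The leukocyte markers summed to at most 2.17, and CD3E was listed at 0 in 5 of the 6 libraries. Of the marker genes, 23 were tested in DKO against vector and 0 passed. The median log2 fold change was -0.09 over the mesenchymal markers, -0.35 over the epithelial, 0.11 over the luminal, 0.05 over the smooth muscle, -0.78 over the 3 fibroblast markers tested and 0.19 over the 2 leukocyte markers tested, and TTN, the 1 skeletal muscle gene tested, was at 0.36.

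The targeted genes were transcribed in every library. In FPKM, CDC42BPA was at 36.4 and 23.3 in the vector libraries, 29.4 with MRCKα KO, 34.9 with MRCKβ KO, and 28.3 and 26.1 in DKO. CDC42BPB was at 30.3, 29.1, 27.3, 25.7, 23.4 and 23.5 in the same order, lowest in the DKO libraries. Its log2 fold change in DKO was -0.37 (SE 0.11, unadjusted p = 0.0132 and adjusted p = 0.9996 in edgeR's quasi-likelihood fit, adjusted by Benjamini-Hochberg over all tested genes). Guide-directed breaks leave small insertions or deletions that need not lower the RNA, so these levels do not check whether the coding sequence was disrupted. The study tested loss of the 2 proteins separately and reported that deletion was very efficient in cells not picked as clones. That test was not analysed here.

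The vector libraries were the pair of libraries farthest apart. Distances were taken across 13764 genes as the SD of the log2 difference in counts, scaled to library totals after TMM normalization. This SD was 0.624 between vector 1 and vector 2, and 0.505 to 0.587 between vector 2 and the other libraries. It was 0.504 between DKO 1 and DKO 2, the smallest distance of DKO 2 to any library, while DKO 1 was closer to MRCKβ KO (0.414), MRCKα KO (0.441) and vector 1 (0.485). Vector 2 and DKO 2 stood apart from the other 4 libraries in many of the genes described here, and both therefore weigh on the comparison of DKO with vector. In FPKM, both lay below all the other 4 libraries for MYH10, MYL9, MYL12A, MYL12B, MYLK and PPP1R12A, which is 6 of 10 genes, a pattern shown by 14.7% of the 13123 genes tested. They lay above the other 4 for MYH9, 1 of 10 genes, as for 13.7% of tested genes. This was noticed in the values and carries no test. Among the markers, both libraries lay below the others for 1 of 8 fibroblast (PDGFRB), 1 of 6 epithelial (KRT19), 2 of 7 smooth muscle and 2 of 3 leukocyte genes. They lay above the others for 3 of 5 mesenchymal genes (VIM, CD44 and AXL) and for 1 smooth muscle gene (SMTN). Of the genes around the motor, listed by function at the end, they were below for 3 and above for 1 of 23 upstream regulators, 1 and 3 of 8 phosphatase partners, 1 and 0 of 12 other myosin chains, and 7 and 3 of 15 filament partners. These numbers and those of the markers include genes too low to be tested. The phosphatase partner PPP1R14A lay above from 1 expected count each in vector 2 and DKO 2. With a block for library number in the fit, 0 of the 10 genes passed, against 5 of 13123, and the log2 fold change of MYLK in DKO moved from -0.14 to -0.05. MYL12B had an unadjusted edgeR p of 0.0115 in that fit, where 796 of 13123 genes were under 0.05. The labels do not say that the numbers mark a shared source. The part of the marker genes in the results was not tested.

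Mean levels over the 6 libraries spanned a wide range. MYL12B stood highest at 569 FPKM, followed by MYL6 at 449 and MYL12A at 379, and the ranges of neighbours in this order overlapped across libraries. MYH9 followed at 143 and MYL9 at 108, each apart from its neighbours. PPP1CB at 43.5 and PPP1R12A at 42.0 overlapped in range, and below them stood MYH10 at 23.4, MYLK at 7.54 and PPP1R12B at 2.27, none overlapping the next.

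**Figure D1:**
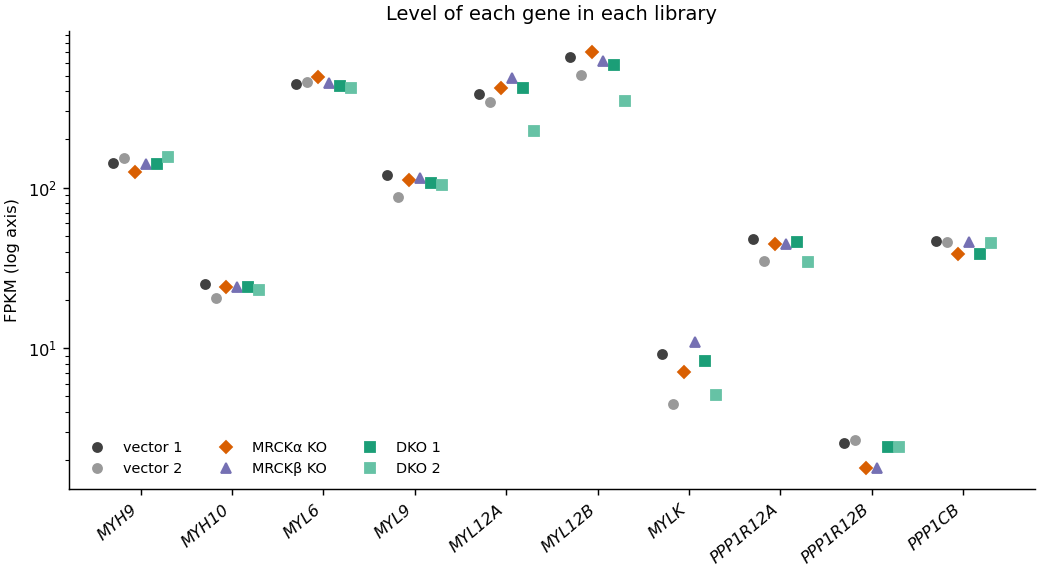
FPKM (log axis) of the 10 genes, 1 point for each of the 6 libraries. The light chains MYL12B, MYL6 and MYL12A lie at the top and PPP1R12B, between 1.78 and 2.66, at the bottom, and the gap between libraries is widest for MYLK, from 4.49 to 11.

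MYH9 (gene ID 4627, minus strand of chromosome 22 in GRCh38) encodes the heavy chain of myosin IIA, the form known for fast contraction at the cell front and in stress fibres. Its FPKM was 142 and 153 in the vector libraries, 126 with MRCKα KO, 140.3 with MRCKβ KO, and 140.5 and 155 in DKO. The DKO values lay around the vector values, and MRCKα KO was the lowest library. MYH10 (gene ID 4628, chromosome 17) encodes the heavy chain of myosin IIB, known for slower and more sustained tension. Its FPKM was 25.0 and 20.6 in the vector libraries, 24.0 with MRCKα KO, 23.9 with MRCKβ KO, and 24.2 and 23.0 in DKO, all within 1.22-fold of each other. The log2 fold change in DKO was -0.01 (SE 0.12) for MYH9 and 0.03 (SE 0.14) for MYH10, both with an adjusted p of 0.9996 in edgeR.

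MYH9 was the dominant heavy chain RNA in every library. Of heavy chain FPKM, MYH10 made up 14.95% and 11.9% in the vector libraries, 16.03% with MRCKα KO, 14.6% with MRCKβ KO, and 14.7% and 12.9% in DKO. The mean share was 13.4% ± 2.18 (SD, n = 2) in vector and 13.8% ± 1.26 (SD, n = 2) in DKO, with an exact two-sided permutation p of 1, where 2 libraries against 2 cannot give less than 0.33. The vector and DKO shares interleaved. MYH14, which encodes the third non-muscle heavy chain, was listed at 0 in 5 libraries and at 0.04 FPKM in MRCKα KO, so MYH9 and MYH10 together stood for nearly all non-muscle heavy chain RNA that this depth could show.

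MYL6 (gene ID 4637, chromosome 12) encodes the essential light chain, which stiffens the lever arm of the motor. Its FPKM was 442 and 459 in the vector libraries, 493 with MRCKα KO, 450.1 with MRCKβ KO, and 431 and 418 in DKO. Both DKO libraries lay below both vector libraries and MRCKα KO above them, and the highest library exceeded the lowest by 1.18-fold, the narrowest range of the 10 genes. The log2 fold change in DKO was -0.11 (SE 0.11, 95% interval -0.38 to 0.16, edgeR adjusted p = 0.9996). MYL6B, a close relative of MYL6, was at 20.4 to 29.4 FPKM and had a log2 fold change of -0.29 (SE 0.19).

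MYL9, MYL12A and MYL12B encode the regulatory light chains, the switch that kinase and phosphatase act on. The switch is a threonine followed by a serine near the start of the protein. The 3 stretches of coding sequence around it are shown because they carry the residues on which the kinases and the phosphatase of this system meet, and because their likeness limits how well short reads tell the genes apart. Each is 60 bases of 1 coding exon of GRCh38 on the plus strand, written 5′ to 3′, with the threonine and serine codons in capitals. They lie at chr20:36544912-36544971 for MYL9, chr18:3253272-3253331 for MYL12A and chr18:3272926-3272985 for MYL12B.
MYL9: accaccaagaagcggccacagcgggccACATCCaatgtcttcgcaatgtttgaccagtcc
MYL12A: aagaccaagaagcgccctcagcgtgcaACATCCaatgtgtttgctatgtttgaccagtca
MYL12B: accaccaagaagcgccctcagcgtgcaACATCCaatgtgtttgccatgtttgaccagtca
Counted from the start codon, the capitals are codons 19 and 20 in MYL9 and MYL12B and codons 18 and 19 in MYL12A, and the 6 bases are the same in all 3 genes. The stretch of MYL12A differs from that of MYL12B at 3 of 60 bases and from that of MYL9 at 10, and MYL9 differs from MYL12B at 8.

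Over the whole coding sequence, MYL12A and MYL12B shared 95.7% of aligned bases, and 168 of 171 aligned codons encoded the same residue. MYL9 shared 79.3% of bases with MYL12A and 80.8% with MYL12B. Reads were 50 bases long. Of the 464 50-base words in the coding sequence of MYL12A, 71 also occurred in that of MYL12B, whereas MYL9 shared 0 such words with either. Over all annotated transcripts, 2.25% of the 50-base words of MYL12A were found in MYL12B and 3.94% of those of MYL12B in MYL12A. The genes are neighbours on the plus strand of chromosome 18, with MYL12A from 3247481 to 3256236 and MYL12B from 3261479 to 3278431. How the authors' counting divided reads between them is uncertain for reads from shared words, which are more frequent in the coding sequence. The sum of the 2 genes is therefore given beside them.

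MYL12A (gene ID 10627) had FPKM values of 382 and 343 in the vector libraries, 421 with MRCKα KO, 485 with MRCKβ KO, and 416 and 225 in DKO. MYL12B (gene ID 103910) was at 657, 507, 701, 616, 584 and 348 FPKM in the same order. For both genes DKO 2 was the lowest library, with DKO 1 1.85-fold above it for MYL12A and 1.68-fold for MYL12B, so the DKO libraries differed from each other by more than their mean differed from vector. Both single knockouts lay above both vector libraries in MYL12A, and MRCKα KO alone did so in MYL12B.

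The log2 fold change in DKO was -0.20 for MYL12A (SE 0.28, 95% interval -0.87 to 0.47) and -0.35 for MYL12B (SE 0.26, 95% interval -0.99 to 0.28), each with an edgeR adjusted p of 0.9996. Summing their counts gave -0.29 (SE 0.27, edgeR adjusted p = 0.9996). Without DKO 2 the value of MYL12A turned to 0.17 and that of MYL12B moved to -0.03, and without DKO 1 they were -0.72 and -0.78. Without vector 1 the values were -0.11 and -0.15, and without vector 2 they were -0.29 and -0.53. The direction for MYL12A thus rested on DKO 2, and the size for both genes moved with the vector libraries as well as with the DKO libraries.

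MYL9 (gene ID 10398, chromosome 20) encodes the regulatory light chain that is most abundant in smooth muscle. Its FPKM was 119 and 87.7 in the vector libraries, 112 with MRCKα KO, 115 with MRCKβ KO, and 108 and 104 in DKO. Both DKO values lay between the vector values, with a log2 fold change of 0.01 (SE 0.17, 95% interval -0.39 to 0.41, edgeR adjusted p = 0.9996). DKO 1 and DKO 2 were within 1.04-fold of each other in MYL9, unlike in MYL12A and MYL12B. The 3 genes with the most similar profile over the 6 libraries, among 11702 genes averaging at least 1 FPKM, were ARPC3, OSER1 and MED14, at a root mean square difference of 0.03 each on the log2 scale.

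Most regulatory light chain RNA was therefore not MYL9. Of regulatory light chain FPKM, MYL9 made up 10.3% and 9.36% in the vector libraries, 9.04% with MRCKα KO, 9.47% with MRCKβ KO, and 9.72% and 15.3% in DKO. The share in DKO 2 stood above the other 5 libraries, which lay between 9.04% and 10.3%. The means were 9.83% ± 0.66 (SD, n = 2) in vector and 12.5% ± 3.96 (SD, n = 2) in DKO, with an exact two-sided permutation p of 0.667, and without DKO 2 the difference turned to -0.11 percentage points.

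Light chain RNA exceeded heavy chain RNA throughout, on a scale that counts transcripts and not proteins. The 3 regulatory light chains summed in FPKM to 1159 and 937 in the vector libraries, 1233 with MRCKα KO, 1215 with MRCKβ KO, and 1107.5 and 677 in DKO. The heavy chains MYH9 and MYH10 summed to 167, 173, 149.7, 164, 165 and 178 FPKM in the same order. The ratio of the first sum to the second ran from 3.80 in DKO 2 to 8.24 in MRCKα KO, since the library with the least light chain RNA had the most heavy chain RNA. MYL6 ran from 2.34 to 3.30 times the heavy chain sum, a narrower span.

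**Figure D2:**
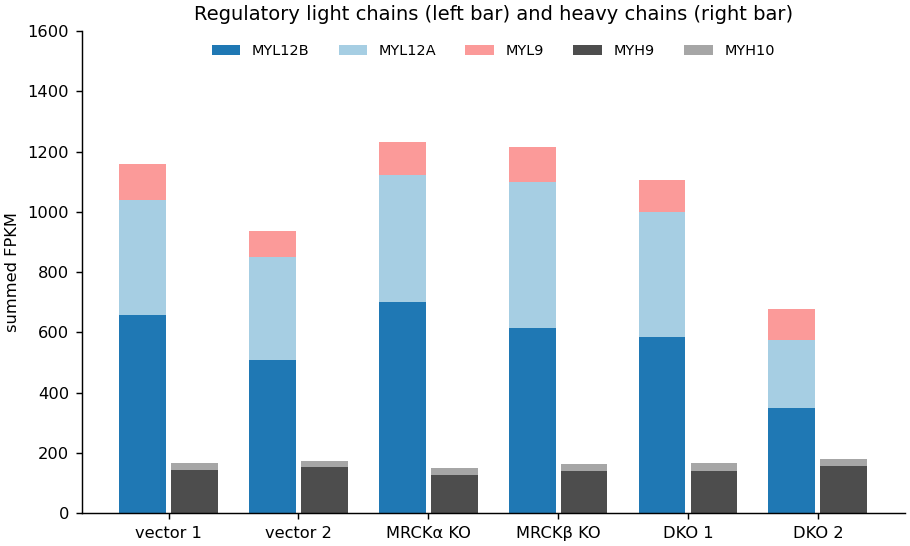
Summed FPKM of the regulatory light chains (left bar of each pair, stacked by gene) and of the heavy chains (right bar) in each of the 6 libraries. The light chain sum is 677 in DKO 2 and 937 in vector 2, against 1107.5 or more in the other libraries, while the heavy chain sum stays between 149.7 and 178.

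MYLK (gene ID 4638, minus strand of chromosome 3) encodes myosin light chain kinase, which calcium and calmodulin switch on. Its FPKM was 9.24 and 4.49 in the vector libraries, 7.07 with MRCKα KO, 11 with MRCKβ KO, and 8.30 and 5.11 in DKO, from 671, 246, 432, 719, 528 and 309 expected counts. Vector 2 and DKO 2 were lowest and MRCKβ KO highest, and the DKO values lay between the vector values. The vector libraries differed by 2.06-fold in this gene, a wider gap than in 93.2% of genes, and 6.96% of tested genes were more than 2-fold apart between them.

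The log2 fold change of MYLK in DKO was -0.14 with a 95% interval of -1.26 to 0.98 (SE 0.46, edgeR adjusted p = 0.9996). The interval runs past a 2-fold decrease and ends just short of a 2-fold increase. Without vector 1 the value was 0.73 and without vector 2 it was -0.67. Its profile was most like those of ITGB3, C2orf48 and ADTRP, at root mean square log2 differences of 0.08, 0.09 and 0.09. The related kinases MYLK3 and MYLK4 had mean FPKM values of 1.06 and 2.91, below that of MYLK.

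PPP1R12A (gene ID 4659, minus strand of chromosome 12) encodes MYPT1, the targeting subunit that brings the phosphatase to myosin and that MRCK phosphorylates. Its FPKM was 47.6 and 35.0 in the vector libraries, 44.5 with MRCKα KO, 44.7 with MRCKβ KO, and 46.0 and 34.5 in DKO. The values lay at 2 levels, with vector 2 and DKO 2 near 35.0 and the other 4 libraries between 44.5 and 47.6, so each group with replicates held 1 library of either level. The log2 fold change in DKO was -0.08 (SE 0.22, 95% interval -0.62 to 0.46, edgeR adjusted p = 0.9996). The value turned to 0.198 without vector 1 and 0.127 without DKO 2, and was -0.315 without vector 2 and -0.331 without DKO 1. IMMT, OSBPL8 and VEZT had the most similar profiles, each at a root mean square log2 difference of 0.02, and those most like MYH9 were SNX17, USP5 and STRN, also at 0.02.

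PPP1R12A RNA exceeded MYLK RNA in every library. The log2 ratio of their FPKM was 2.37 and 2.96 in the vector libraries, 2.65 with MRCKα KO, 2.02 with MRCKβ KO, and 2.47 and 2.75 in DKO. The means were 2.66 ± 0.42 (SD, n = 2) in vector and 2.61 ± 0.20 (SD, n = 2) in DKO, with an exact two-sided permutation p of 1. MRCKβ KO had the lowest ratio and the most MYLK reads, and both DKO libraries lay between the vector libraries.

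PPP1R12B (gene ID 4660, plus strand of chromosome 1) encodes MYPT2, a relative of MYPT1 known from heart and skeletal muscle. Its FPKM was 2.55 and 2.66 in the vector libraries, 1.79 with MRCKα KO, 1.78 with MRCKβ KO, and 2.42 and 2.41 in DKO. All 4 knockout libraries lay below both vector libraries, and the single knockouts were lowest. The share of all tested genes with this order was not counted. The reads did not follow, at expected counts of 207, 175, 191, 204, 241 and 226 in the same order, where both DKO libraries were the highest.

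The measures part because FPKM divides by a transcript length that the counting program weights by the isoforms it infers. That length was 7531 bases in vector 1 and 6287 in vector 2, against 10171 with MRCKα KO, 10652 with MRCKβ KO, and 9412 and 8836 in DKO. It was longer in all 4 knockout libraries, by 1.69-fold between the longest and the shortest, the widest span of the 10 genes. Annotated coding transcripts of PPP1R12B run from 635 to 15431 bases. With about 200 reads a library, how precisely the length was inferred was not tested. Nor was the share of all genes with this order of lengths counted.

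By reads, the log2 fold change of PPP1R12B in DKO was 0.27 (SE 0.17, 95% interval -0.15 to 0.69, edgeR adjusted p = 0.9996), whereas limma on log2(FPKM + 0.1) gave -0.11. The direction therefore depended on the unit, and neither passed the test. Of the FPKM of PPP1R12A and PPP1R12B together, PPP1R12B made up 5.08% and 7.07% in the vector libraries, 3.87% with MRCKα KO, 3.83% with MRCKβ KO, and 4.99% and 6.53% in DKO. The means of 6.08% ± 1.40 (SD, n = 2) in vector and 5.76% ± 1.09 (SD, n = 2) in DKO gave an exact two-sided permutation p of 0.667. In expected counts the direction of this share turned as well, to 1.94 percentage points higher in DKO. These shares leave out the related gene PPP1R12C, which ran from 29.3 FPKM in vector 1 to 36.95 in DKO 1. It lay below PPP1R12A in 4 libraries, was level with it in vector 2 (34.9 against 35.0) and lay above it in DKO 2 (35.85 against 34.5).

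**Figure D3:**
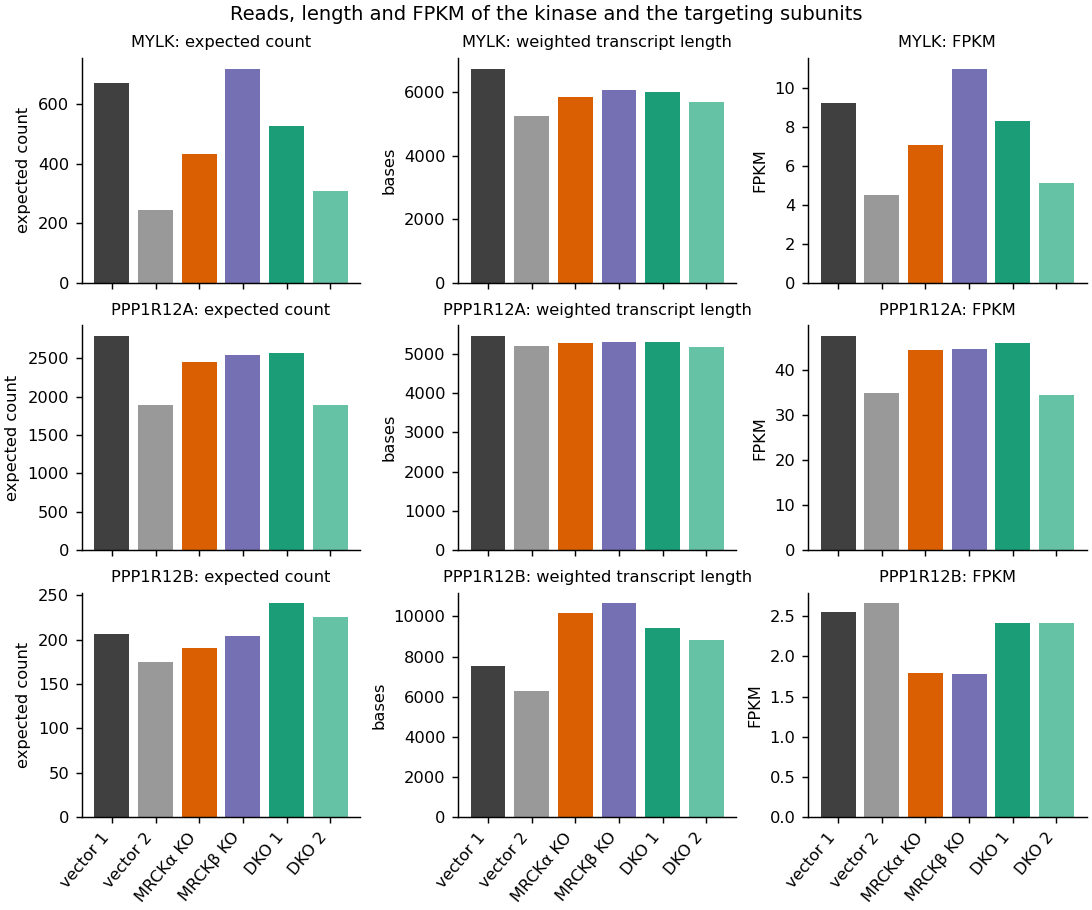
Expected count, weighted transcript length in bases and FPKM of MYLK, PPP1R12A and PPP1R12B, 1 bar for each library, all axes from 0. PPP1R12B has its most reads in the DKO libraries (241 and 226) and a longer weighted length in all 4 knockout libraries than in the vector libraries, and MYLK has its fewest reads in vector 2 (246) and DKO 2 (309).

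PPP1CB (gene ID 5500, plus strand of chromosome 2) encodes the catalytic subunit that the targeting subunits hold. Its FPKM was 46.6 and 45.8 in the vector libraries, 38.8 with MRCKα KO, 46.1 with MRCKβ KO, and 38.8 and 45.0 in DKO. Both DKO values lay below the vector values, but DKO 2 by little, and MRCKα KO and DKO 1 shared the lowest level. The log2 fold change in DKO was -0.16 (SE 0.12, 95% interval -0.45 to 0.13, edgeR adjusted p = 0.9996). Without DKO 1 the value was -0.068 and without DKO 2 it was -0.258. Of the 50-base words of PPP1CB, 7.02% also occurred in SPDYA, the annotated neighbour that overlaps it, so part of its reads cannot be assigned with certainty.

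Across the comparison of DKO with vector, 0 of the 10 genes passed an adjusted p of 0.05 in edgeR, against 0% (0 of 13123) of all genes tested. At an unadjusted p under 0.05 the numbers were 0 of 10 and 313 of 13123, and DESeq2 called 0 of the 10 genes and 4 genes in all. Of the 10 genes, 3 had a fitted value above 0 and 7 below, with a median log2 fold change of -0.09 against -0.002 over all tested genes. In FPKM, both DKO libraries lay below both vector libraries for 3 of the 10 genes (MYL6, PPP1R12B and PPP1CB), as for 12.3% of tested genes, and above them for 0 of 10, against 17.0%. In counts scaled to the library total, PPP1R12B lay above instead, leaving 2 genes below and 1 above. The upper and lower ends of the 95% intervals stayed within 2-fold for every one of the 10 genes except MYLK.

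**Figure D4:**
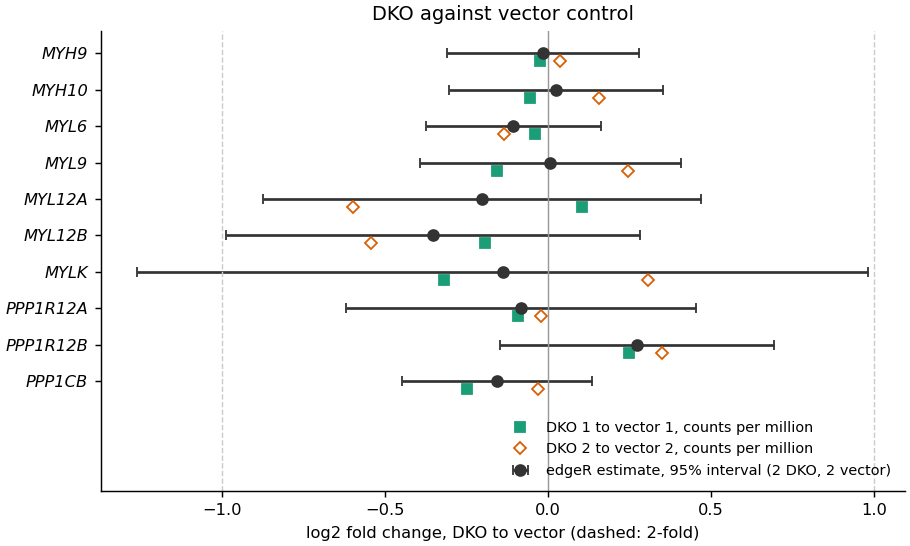
log2 fold change in DKO against vector for the 10 genes, with 95% intervals from edgeR over 2 DKO and 2 vector libraries (circles) and the ratio of counts scaled to the library total of DKO 1 to vector 1 (squares) and of DKO 2 to vector 2 (diamonds). All intervals cross 0, that of MYLK is the widest at -1.26 to 0.98, and the squares of MYH10 (-0.05), MYL9 (-0.16) and MYL12A (0.10) lie on the other side of 0 from their circles, as do the diamonds of MYH9 (0.04) and MYLK (0.31).

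The study's own rule for a changed gene drops genes more than 2-fold apart between replicates, averages the rest and asks for a log2 ratio of FPKM of at least 1 in either direction. It left out MYLK for its vector libraries and found 0 of the other 9 genes changed in DKO, where 1.76% of all genes with a ratio were. The corresponding numbers were 0 of 9 against 4.38% in MRCKα KO and 0 of 9 against 3.5% in MRCKβ KO. The study also set poorly expressed genes aside without naming a cut-off, and these shares include such genes. Where the mean reached 1 FPKM in either group, 0.43% of genes with a ratio were past the rule in DKO, 1.44% with MRCKα KO and 0.828% with MRCKβ KO, and still 0 of the 9 genes that had one.

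The single knockouts had 1 library each, so their differences have no replicate check, and all comparisons share the vector libraries. In MRCKα KO, 6 of the 10 genes lay outside the range of the vector libraries in FPKM, as did 59.5% of tested genes. MYH9 lay below both, at log2 ratios of -0.18 to vector 1 and -0.28 to vector 2, and PPP1CB likewise at -0.27 and -0.24. MYL6 lay above both at 0.16 and 0.10, MYL12A at 0.14 and 0.30 and MYL12B at 0.09 and 0.47. On reads, the log2 ratio of MYH9 to the pooled vector libraries was -0.24, with an exact 95% binomial interval of -0.27 to -0.20 that reflects read counting alone and sets library against library, not genotype against genotype. PPP1R12B, the other gene below both in FPKM, lay within the vector range in counts scaled to the library total.

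In MRCKβ KO, 4 of the 10 genes lay outside the vector range, as did 59.3% of tested genes. MYL12A lay above both, at log2 ratios of 0.34 to vector 1 and 0.50 to vector 2, and MYLK at 0.25 and 1.29. The ratio of MYLK thus passed 2-fold against vector 2 and not against vector 1, and which vector library served as the control decided it. MYH9 lay slightly below both, at -0.02 and -0.12, and PPP1R12B was lower in FPKM alone.

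**Figure D5:**
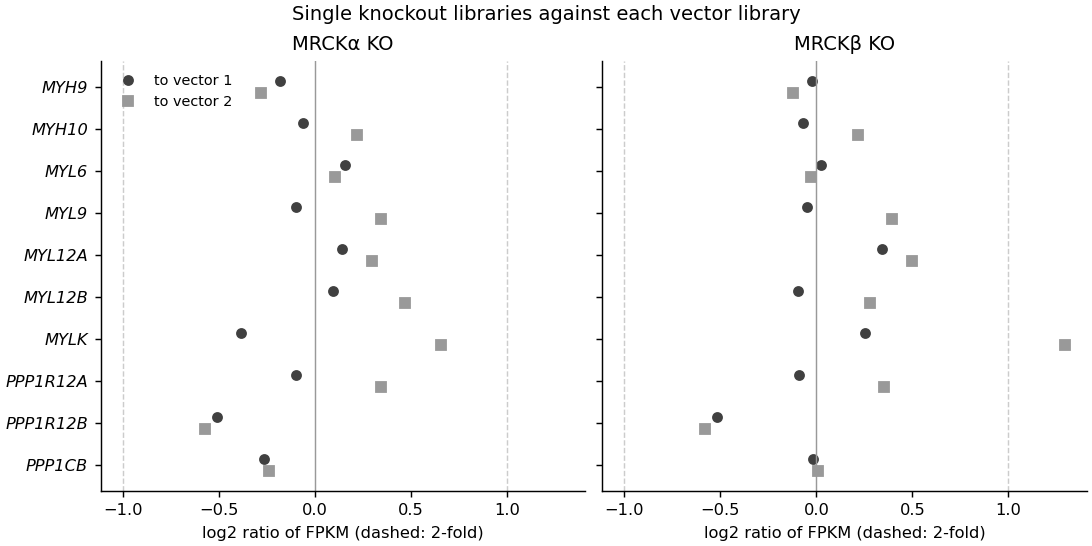
log2 ratio of FPKM of each gene in MRCKα KO (left) and MRCKβ KO (right) to vector 1 (circles) and to vector 2 (squares), with dashed lines at 2-fold. The point of MYLK in MRCKβ KO against vector 2, at 1.29, is the 1 point past 2-fold.

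The genes around the motor were read from lists written by function. Of 23 regulators upstream of the light chain (GTPases, kinases and calmodulins), 22 were tested in DKO and 0 passed, with a median log2 fold change of -0.07. CALM2 (mean 361 FPKM), RHOA (346) and CALM3 (222) were the most abundant. At an unadjusted edgeR p under 0.05, CDC42BPB was lower and DAPK3, a kinase of the light chain, was higher. Of all 13123 tested genes, 2.39% were under 0.05. DAPK3 was at 13.8, 13.0, 13.6, 16.3, 17.0 and 17.3 FPKM in library order (log2 fold change 0.34, SE 0.14, edgeR unadjusted p = 0.044, adjusted p = 0.9996).

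Other subunits and inhibitors of the phosphatase family differed widely in RNA level. Of 10 listed, 8 were in the table, 6 were tested and 0 passed, with a median log2 fold change of -0.07. The inhibitor PPP1R14B had a mean of 199 FPKM, the catalytic subunits PPP1CC and PPP1CA had means of 191 and 114, both above the 43.5 of PPP1CB, and the scaffold MPRIP, with the lowest unadjusted p of this list in edgeR (0.179), had 39.6. The inhibitors PPP1R14A and PPP1R14D had at most 3 counts in any library.

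Of 21 other class II myosin chains, most of them muscle forms, 12 were in the table, 5 were tested and 0 passed, with a median log2 fold change of -0.19. After MYL6B (mean 24.5 FPKM), the most abundant were MYL5 at 2.29 and MYH3 at 1.30. All 15 actins, tropomyosins and actomyosin-binding proteins were tested and 0 passed, with a median log2 fold change of -0.08. ACTB (mean 3270 FPKM), ACTG1 (1411) and TPM4 (615) led them, and MYO18A had the lowest unadjusted p in edgeR, at 0.138 (log2 fold change -0.36, SE 0.21).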

How the data were processed

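The authors sequenced total RNA from 6 cultures as single-end reads. The submitters' processing notes name HISAT, Bowtie2 and RSEM with the build GRCh38.p11, without program versions. The deposited tables give, for each gene, an expected count (not normalized), an FPKM value and a weighted transcript length in bases, all made by the authors' sequencing provider. Libraries were grouped by their labels, and 0 columns of per-sample values were unmatched.

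Expected counts were rounded to whole numbers, filtered with filterByExpr and normalized by TMM, and DKO was compared with vector by the quasi-likelihood test of edgeR 4.0.16 in R 4.3.3, with Benjamini-Hochberg adjustment over 13123 genes at 0.05. The test was also run on simulated counts with the same dispersion for every gene. That run does not check the test at the spread of these libraries. The 2-fold rule followed the study's methods, and a gene at 0 in only one of a pair of replicates was also left out. Shares and the kinase ratio were compared with an exact permutation test (scipy 1.17.1). The p-values rest on 2 libraries a group. Those of edgeR set a difference against a spread estimated partly from the other tested genes. Counting intervals are exact binomial at 95%, a count of 0 allows up to 3 counts in a library, and both cover counting error only. Sequences, coordinates and 50-base words came from GENCODE v29 on GRCh38, which may differ from the authors' gene models, and residues were compared by translating the annotated coding sequences.

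The members and lists were chosen with earlier results of these data known. The genes named are the 10 members, the 2 targeted genes, in each other list the 3 most abundant, the one with the lowest unadjusted p and any past a threshold that averaged at least 1 FPKM, and the 3 genes most like MYH9, MYL9, MYLK and PPP1R12A, by the root mean square difference of log2(FPKM + 0.1) after centring. Some marker genes under this rule are not named. Further marker genes, MYH14, MYLK3, MYLK4, PPP1R12C, PPP1R14A and PPP1R14D were named after their values were seen. Alternatives were DESeq2 1.42.0, limma 3.58.1 with a pseudocount of 0.1 or 1 on log2 FPKM, other normalizations and filters, 1 fit of all 6 libraries, a replicate block, MYL12A and MYL12B summed, other pseudocounts, counts in place of FPKM, and each replicate left out.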

Additional observations from a re-analysis of the deposited data

How the results depend on the processing

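No alternative called any of the 10 genes in DKO. Over all genes, 0 were called by edgeR, 4 by DESeq2 (ICAM1, TNFAIP3 and the readthrough genes RPS10-NUDT3 and TNFAIP8L2-SCNM1) and 5 with the replicate block (CXCL8, CXCL1, ICAM1, IL24 and TNFAIP3). Leaving out 1 library gave between 0 and 5 called genes. The other alternatives gave 0. The numbers 1 and 2 of the vector and DKO libraries share no stated batch, and across genes the difference of the vector libraries and that of the DKO libraries had a correlation of 0.253. With the replicate block, 1 of the 10 genes (MYL12B) had an unadjusted p under 0.05 in edgeR, as had 796 of all 13123 tested. Without DKO 1, 2 had (MYL12A and MYL12B), as had 337 of 13499, and there DKO 2 stands alone and the spread comes from the vector libraries only.

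Directions of single genes often turned. With library size alone MYH9 had a log2 fold change of 0.007. On log2(FPKM + 0.1) and log2(FPKM + 1), limma gave 0.003 in both cases for MYH9, 0.015 and 0.008 for MYLK, and -0.105 and -0.078 for PPP1R12B. With only vector 1 and DKO 1, a setting added after seeing the data, MYH10 was at -0.054, MYL9 at -0.156 and MYL12A at 0.104. With only vector 2 and DKO 2, added likewise, these were at 0.158, 0.246 and -0.597, MYH9 at 0.036 and MYLK at 0.307. With each library left out in turn, MYH9 ran from -0.084 to 0.046, MYH10 from -0.107 to 0.172, MYL9 from -0.192 to 0.241, MYL12A from -0.719 to 0.174, MYLK from -0.673 to 0.727 and PPP1R12A from -0.331 to 0.198. MYL6, MYL12B and PPP1CB stayed below 0 in every alternative run.

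The share of MYH10 changed in DKO by 0.37 percentage points, and the change ran from -1.172 to 1.905 with 1 library left out. The corresponding ranges were -0.11 to 5.496 for MYL9, -1.308 to 0.679 for PPP1R12B and -0.348 to 0.248 for the log2 ratio of PPP1R12A to MYLK. In expected counts the share of PPP1R12B beside PPP1R12A was 1.94 points higher in DKO, where FPKM gave -0.31. In MRCKβ KO, between 0 and 1 of the genes (MYLK) passed the 2-fold rule when 1 vector library was left out. The cause was not tested. Counts were lowest for PPP1R12B (175 to 241) and MYLK (246 to 719), and in MYLK the vector libraries also differed by 2.06-fold.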
